A study of Mus musculus with 14 samples.

Results

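Cholesterol homeostasis genes are the genes of the Hallmark set of that name, a published list that holds the enzymes of sterol synthesis together with genes of lipid uptake, fatty acid synthesis and other functions. The set held 75 genes, and 70 of them were in the count table of 19525 genes. Left out by the rule were 3 lysosome genes (*Abca2*, *Gusb* and *Lgmn*) and 5 genes excluded by name (*Atf3*, *Atf5*, *Trib3*, *Plaur* and *Gpx8*), which gave 62 members. *Adh4*, *Anxa13*, *Avpr1a*, *Gnai1* and *Lpl* were not analysed here. The members were sorted by function into 18 sterol synthesis enzymes, 7 genes of uptake, transport and control, 9 genes of fatty acid and phospholipid metabolism, and 28 others.

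The 14 libraries were mRNA of the cytosolic lysate of 4T1 spheroids, the input of a polysome profiling experiment. 4T1 is a mouse triple-negative mammary carcinoma line, and every group was grown as spheroids in lung-like medium (LLM) over 5 days. This medium mimics the nutrient levels of lung interstitial fluid. All lines were polyclonal pools that carried a lentiviral hairpin, and all spheroids met cycloheximide, a translation inhibitor, in the wash before lysis. ASP shSCR (n = 4) carried a non-targeting hairpin and was grown with 700 µM aspartate. NoASP shSCR (n = 3) carried the same hairpin without added aspartate. ASP shGRIN2D (n = 3) and ASP shDHPS (n = 4) carried hairpins against *Grin2d* (which encodes an NMDA receptor subunit) and *Dhps* (the enzyme that starts eIF5A hypusination), and both were grown with aspartate only. A knockdown without aspartate was not part of the design, so an effect of a hairpin and an effect of aspartate in that line cannot be told apart.

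Cells make cholesterol from acetyl-CoA. *Hmgcs1* acts early on the way to mevalonate, *Mvk*, *Pmvk*, *Mvd*, *Idi1* and *Fdps* turn mevalonate into isoprenoids, *Fdft1*, *Sqle* and *Lss* build the sterol ring, and *Cyp51* to *Dhcr7* trim it to cholesterol. When membrane sterol falls, SCAP carries the transcription factor SREBP2 (*Srebf2*) to the Golgi, where it is cut and released to switch on genes of sterol synthesis and uptake. When sterol is plentiful, INSIG proteins hold SCAP in the endoplasmic reticulum, and the genes of the pathway tend to fall together.

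SREBP2 is known to bind sterol regulatory elements together with NF-Y, which binds CCAAT boxes, so promoter letters were read for the members. RefSeq promoters of GRCm38.p6, each from 250 bases before to 50 after a start, matched 45 of the 62 members by symbol, among them 13 of the 18 enzymes. The count table itself was made on GRCm39, and no coordinate was carried between the builds. Each window printed here is the 200 bases before the start, 5′ to 3′ on the strand of the gene, for 4 enzymes that span the pathway and for *Aldoc*, a member outside it. Capitals mark CCAAT in either direction (ATTGG is its reverse) and the sterol regulatory element letters TCACNCCAC. The windows lie at chr13:119690151-119690350 (*Hmgcs1*, plus strand), chr13:8885406-8885605 (*Idi1*, plus strand), chr5:114444069-114444268 (*Mvk*, plus strand), chrX:72918321-72918520 (*Nsdhl*, plus strand) and chr11:78322873-78323072 (*Aldoc*, plus strand), each directly upstream of the annotated start of the gene (for *Aldoc*, of 1 of 2 listed starts).
*Hmgcs1* promoter: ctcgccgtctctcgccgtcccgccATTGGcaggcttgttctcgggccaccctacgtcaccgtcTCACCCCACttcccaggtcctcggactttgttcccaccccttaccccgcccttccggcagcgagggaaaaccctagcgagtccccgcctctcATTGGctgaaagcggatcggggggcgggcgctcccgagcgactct
*Idi1* promoter: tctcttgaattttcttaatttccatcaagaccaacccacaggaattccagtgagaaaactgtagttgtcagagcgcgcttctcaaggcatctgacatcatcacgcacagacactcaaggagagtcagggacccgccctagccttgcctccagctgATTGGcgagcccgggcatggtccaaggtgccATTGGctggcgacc
*Mvk* promoter: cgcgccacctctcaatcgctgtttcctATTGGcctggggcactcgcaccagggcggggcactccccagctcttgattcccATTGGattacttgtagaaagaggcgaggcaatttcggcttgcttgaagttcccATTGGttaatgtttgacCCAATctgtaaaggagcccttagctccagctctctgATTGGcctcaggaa
*Nsdhl* promoter: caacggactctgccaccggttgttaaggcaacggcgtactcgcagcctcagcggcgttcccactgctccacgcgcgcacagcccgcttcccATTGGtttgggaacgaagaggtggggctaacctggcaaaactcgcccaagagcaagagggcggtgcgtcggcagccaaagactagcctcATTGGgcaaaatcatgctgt
*Aldoc* promoter: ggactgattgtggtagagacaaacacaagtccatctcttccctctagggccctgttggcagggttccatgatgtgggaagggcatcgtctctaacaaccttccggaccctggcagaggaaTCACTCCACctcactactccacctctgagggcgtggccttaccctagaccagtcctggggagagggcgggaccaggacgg

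The *Hmgcs1* window held TCACCCCAC beginning 137 bases before the start, with CCAAT boxes on both sides of it. The *Mvk* window held 5 CCAAT boxes and no match to TCACNCCAC. *Aldoc* held TCACTCCAC beginning 80 bases before its start and no CCAAT box in this window. The window shown is that of the first listed start of *Aldoc* with a match to either motif. Over the full promoters and both strands, CCAAT occurred in 13 of 13 matched enzymes, in 19 of 32 other members (59.4%) and in 3523 of 8090 genes (43.5%) that had a promoter and a mean of at least 5 CPM, which are counts scaled by the size of the library. By single promoter, CCAAT stood in 13 of the 16 promoters listed for the enzymes and in 37.4% of all 32851 promoters. TCACNCCAC was rarer, in 3 of 45 members (*Hmgcs1*, *Aldoc* and *Gstm7*) and in 1.29% of those 8090 genes. The GC box letters GGGCGG were in 12 of 13 enzymes and in 73.1% of the same genes. A match in letters is a description of these windows and not a site shown to be bound.

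Total counts were between 12731123 and 23231378 per library, and of the 62 members 57 had a mean of at least 5 CPM. *Acat3*, *Cbs*, *Gldc* and *Gstm7* had means under 1 CPM, where single reads decide a fold. *Acat3* also resembles *Acat2* closely, so that its reads are split by estimation, as are those of *Actg1* with other actins. *Dhps* was 18.7, 22.1, 20.2 and 16.7 CPM in ASP shSCR and 5.57, 5.46, 7.62 and 9.08 CPM in ASP shDHPS (log2 fold change -1.48 ± 0.15 SE, edgeR adjusted p = 8.31e-06). *Grin2d* was 3.32, 3.23, 3.68 and 4.16 CPM in ASP shSCR and 2.06, 2.17 and 3.13 CPM in ASP shGRIN2D, and this difference was not called (-0.55 ± 0.28, edgeR adjusted p = 0.516). *Krt8* (1261 to 1787 CPM) and *Epcam* (418 to 687 CPM), markers of the epithelial line, were high in every library. Of the markers of other cells, *Dcn*, *Csf1r*, *Cdh5* and *Cidec* were at most 0.375 CPM and *Ptprc* and *Pecam1* at most 0.648 CPM, while *Thy1* (143 to 253 CPM), *Pdgfra* (22.7 to 40.7 CPM) and *Cd68* (5.51 to 16 CPM) were present. The remaining 6 of the 15 markers of other cells were not analysed here. Bulk RNA was measured, in which fewer cells of a kind and less RNA per cell cannot be told apart.

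Replicate 2 of ASP shSCR stood apart. For 45 of the 58 members with at least 1 CPM it was the highest or the lowest of its group, against 20 to 26 for the other ASP shSCR libraries. *Aldoc* was 31.1 CPM in it and 23.6 CPM in replicate 2 of NoASP shSCR, where the other 5 shSCR libraries lay between 9.51 and 11.6 CPM. In ASP shDHPS, replicate 1 was an extreme for 39 of the 58 members and was the highest for 31 of them. Where leaving out one of these libraries ended the call of a member, this is stated.

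Of the 18 sterol synthesis enzymes, 17 had a mean of at least 5 CPM, *Acat3* being the exception. *Mvk*, the mevalonate kinase, was 33.2, 22.1 and 28.2 CPM in NoASP shSCR and 27.8, 26.7, 26.5 and 31.3 CPM in ASP shSCR. It was 22.7, 26.4, 19.6 and 23.4 CPM in ASP shDHPS, below every ASP shSCR library although the nearest almost met, while NoASP shSCR replicate 3 lay among the knockdown values. *Hmgcs1*, the HMG-CoA synthase, was 179, 185, 176 and 228 CPM in ASP shSCR and 190, 167, 125 and 152 CPM in ASP shDHPS. Here the groups overlapped, with ASP shDHPS replicate 1 inside the control range and replicate 3 farthest below it. *Sqle*, the second controlled step of the pathway, was 167, 157, 170 and 188 CPM in ASP shSCR and 173, 180, 151 and 178 CPM in ASP shDHPS, with no separation.

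To see the enzymes side by side, log2 CPM of the 17 with at least 5 CPM was taken relative to each gene's mean over the 14 libraries. The median enzyme lay at 0.025, 0.041, 0.063 and 0.12 in ASP shSCR and at 0.11, -0.02 and 0.11 in NoASP shSCR. In ASP shGRIN2D it lay at -0.035, 0.059 and -0.17, and in ASP shDHPS at 0.11, 0.042, -0.24 and -0.13. The low values of each knockdown group came from replicate 3 of ASP shGRIN2D and replicates 3 and 4 of ASP shDHPS, and the medians of the remaining knockdown libraries lay between -0.035 and 0.11.

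**Figure D1:**
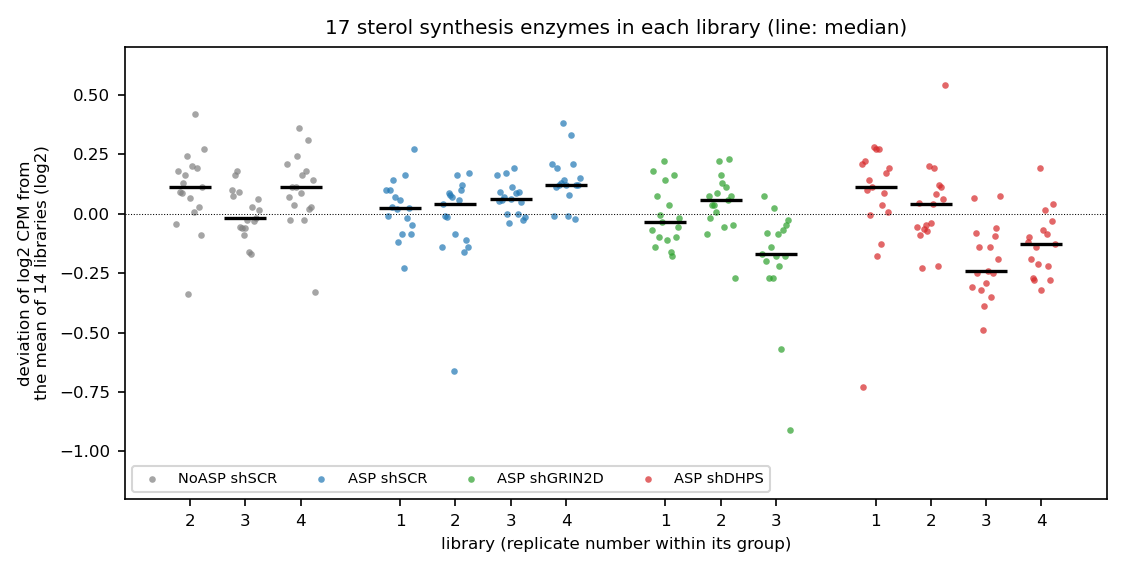
Deviation of log2 CPM from the gene's mean over 14 libraries (y axis, log2 units) for 17 sterol synthesis enzymes in each library (x axis, replicate number, coloured by group), with the median as a line. The median is lowest in ASP shDHPS replicate 3 (-0.24) and ASP shGRIN2D replicate 3 (-0.17), and ASP shDHPS replicate 1 (0.11) lies as high as the controls.

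The enzymes varied together from library to library. Over the 136 pairs of these 17 enzymes, the median Pearson correlation across the 14 libraries was 0.385 and 83.8% of pairs were above 0, beside a median of -0.00211 and 49.8% over all pairs of the 10224 genes with at least 5 CPM. With each gene centred within its group, the median over enzyme pairs was 0.466, so the shared variation was also present among libraries of the same group. The points are libraries that differ in depth and may differ in preparation, and the values are descriptions with no test.

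Aspartate was compared first, in control spheroids with and without it, because the study asked what aspartate changes in these cells. None of the 62 members was called at an adjusted p under 0.05 by edgeR, and none of all 19525 genes was (0%). No member had an unadjusted p under 0.05, against 424 of all genes, and DESeq2 called 0 members. The count was also 0 without both shSCR libraries numbered 2. The median log2 fold change of the 18 enzymes was -0.0038, and that of all genes tested was 0.00087.

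The intervals were narrow enough to bound the aspartate difference for the enzymes. For the 17 enzymes other than *Acat3*, every 95% confidence interval lay within 1.5-fold in both directions, from -0.51 for *Hsd17b7* at the lowest to 0.55 for *Tm7sf2* at the highest. *Hmgcs1* differed by -0.024 (95% interval -0.29 to 0.24) and *Sqle* by -0.12 (-0.30 to 0.059) on the log2 scale. *Acat3*, at under 0.4 CPM in these groups, had an interval from -2.03 to 2.96 and gave no information.

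No gene of sterol uptake, transport and control was called either, and 6 of these 7 had an interval within 1.5-fold, the exception being *Pparg*, with an upper bound of 0.60. *Srebf2* was 276, 254 and 290 CPM without and 255, 277, 260 and 260 CPM with aspartate, which overlap. *Clu* (0.094), *Pparg* (0.067), *Stard4* (0.0056), *Stx5a* (-0.025) and *Tmem97* (-0.0062) were all uncalled on the same log2 scale. Among the remaining members, *Alcam* (0.17, unadjusted p = 0.07), *Pdk3* (0.15, unadjusted p = 0.208) and *Sema3b* (0.17, unadjusted p = 0.225) were nearest to a difference by the edgeR test, and none was called. Of the 46 pathway genes outside the set that were analysed, 0 were called by edgeR, and 0 had an unadjusted p under 0.05.

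**Figure D2:**
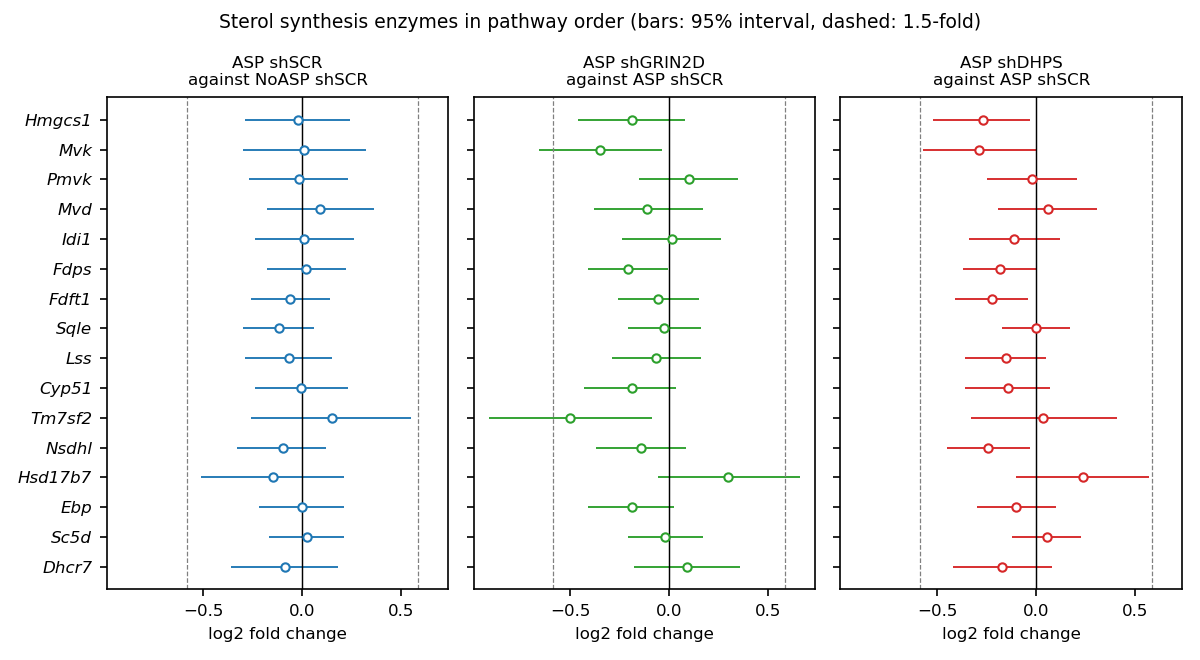
Log2 fold change (x axis) of 16 sterol synthesis enzymes in pathway order (y axis) for aspartate, the GRIN2D knockdown and the DHPS knockdown, with 95% confidence intervals and dashed lines at 1.5-fold. None of these enzymes was called. In the DHPS knockdown 11 of the 16 lie below 0 and all intervals end inside the dashed lines.

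The ASP shGRIN2D line was next compared with ASP shSCR, both grown with aspartate, although the fall of *Grin2d* itself was not called. The study checked *Grin2d* silencing in 4T1 spheroids separately, by quantitative PCR. Only *Fabp5* was called (1 of 62 members, beside 1.16% of all genes), and it was lower in ASP shGRIN2D. Among genes with at least 5 CPM this was 1 of 57 members (1.75%), beside 193 of 10224 genes (1.89%). *Fabp5* encodes a fatty acid binding protein that carries lipids inside the cell. It was 66.3, 49.8, 63.7 and 62.4 CPM in ASP shSCR and 44.6, 46.3 and 41.9 CPM in ASP shGRIN2D. The ASP shGRIN2D libraries were the lowest of all 14, just under ASP shSCR replicate 2, and the fold fell by 0.45 on the log2 scale (± 0.11 SE, edgeR adjusted p = 0.0473). The call was lost without ASP shSCR replicate 1, 3 or 4 or without any of the 3 ASP shGRIN2D libraries. DESeq2 called 3 members, adding *Alcam* and *Lgals3*.

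No sterol synthesis enzyme was called in this comparison by edgeR, 3 had an unadjusted p under 0.05, and DESeq2 called 0. Of all 19525 genes, 2040 had an unadjusted p under 0.05 by edgeR. Of the 17 enzymes with at least 5 CPM, 13 had a fold below 0 (76.5%), with a median of -0.11 on the log2 scale. Of the 10224 genes at that level 48.4% lay below 0, with a median of 0.0059. *Tm7sf2*, a sterol reductase, was 10.4, 9.69, 8.53 and 9.58 CPM in ASP shSCR and 8.5, 7.1 and 4.53 CPM in ASP shGRIN2D. The nearest libraries of both groups almost met, and its edgeR adjusted p was 0.337 (log2 fold change -0.50 ± 0.20). *Mvk* was 27.8, 26.7, 26.5 and 31.3 CPM in ASP shSCR and 22.2, 26.9 and 16.7 CPM in ASP shGRIN2D (-0.35 ± 0.15, edgeR adjusted p = 0.409). The interval lay within 1.5-fold for 14 of the 17 enzymes with at least 5 CPM, the exceptions being *Tm7sf2*, *Mvk* and *Hsd17b7*.

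Among the genes of uptake, transport and control, none was called, and *Pparg* had the highest and *Clu* the lowest log2 fold change. *Pparg*, a nuclear receptor that drives lipid storage genes, was 2.23, 2.23, 1.47 and 2.59 CPM in ASP shSCR and 3.14, 3.23 and 3.07 CPM in ASP shGRIN2D (0.57 ± 0.25, edgeR adjusted p = 0.413). *Clu*, which encodes the apolipoprotein clusterin, was 710, 907, 672 and 729 CPM in ASP shSCR and 632, 585 and 592 CPM in ASP shGRIN2D (-0.32 ± 0.11, edgeR adjusted p = 0.218). *Srebf2* (-0.11), *Stard4* (-0.034), *Stx5a* (0.053) and *Tmem97* (0.02) had log2 fold changes close to 0 beside standard errors of 0.10 to 0.14. Of the 46 pathway genes outside the set, 0 were called by edgeR and 6 had an unadjusted p under 0.05.

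Against NoASP shSCR, the ASP shGRIN2D libraries gave no called member by edgeR (0 of 62, beside 0.681% of all genes) and 0 by DESeq2. An unadjusted p under 0.05 by edgeR was found for 8 members and for 1812 of all 19525 genes. The nearest were *Mal2*, a membrane trafficking protein (log2 fold change -0.44, unadjusted p = 0.00243), *Fabp5* (-0.36, unadjusted p = 0.00627) and *Ech1*, an enzyme of fatty acid oxidation (0.34, unadjusted p = 0.00638), all by the edgeR test. *Srebf2* differed by -0.16 and *Hmgcs1* by -0.21 on the log2 scale, and neither was called. The edgeR test called 0 of the 46 pathway genes outside the set, with 4 at an unadjusted p under 0.05.

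Between ASP shDHPS and ASP shSCR, 8 members were called by edgeR without a replicate block, and none of them was a sterol synthesis enzyme. Lower in ASP shDHPS than in ASP shSCR were 6 members: *Pparg*, *Aldoc*, *Clu*, *Jag1*, *Alcam* and *Sema3b*. Higher were *Chka* and *Cxcl16*. Beside 8 of 62 members, 4.22% of all genes were called, with 1.65% higher and 2.57% lower. Among genes with at least 5 CPM, 7 of 57 members (12.3%) and 709 of 10224 genes (6.93%) were called. The CPM of the groups did not overlap for 11 of the 62 members and for 11.1% of all genes. The count of members called was 5 without ASP shSCR replicate 2, 5 without ASP shDHPS replicate 3 and 7 without ASP shDHPS replicate 1. With the replicate number as a block the count was higher, and it included the enzyme *Hmgcs1* (-0.28, edgeR adjusted p = 0.0281).

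**Figure D3:**
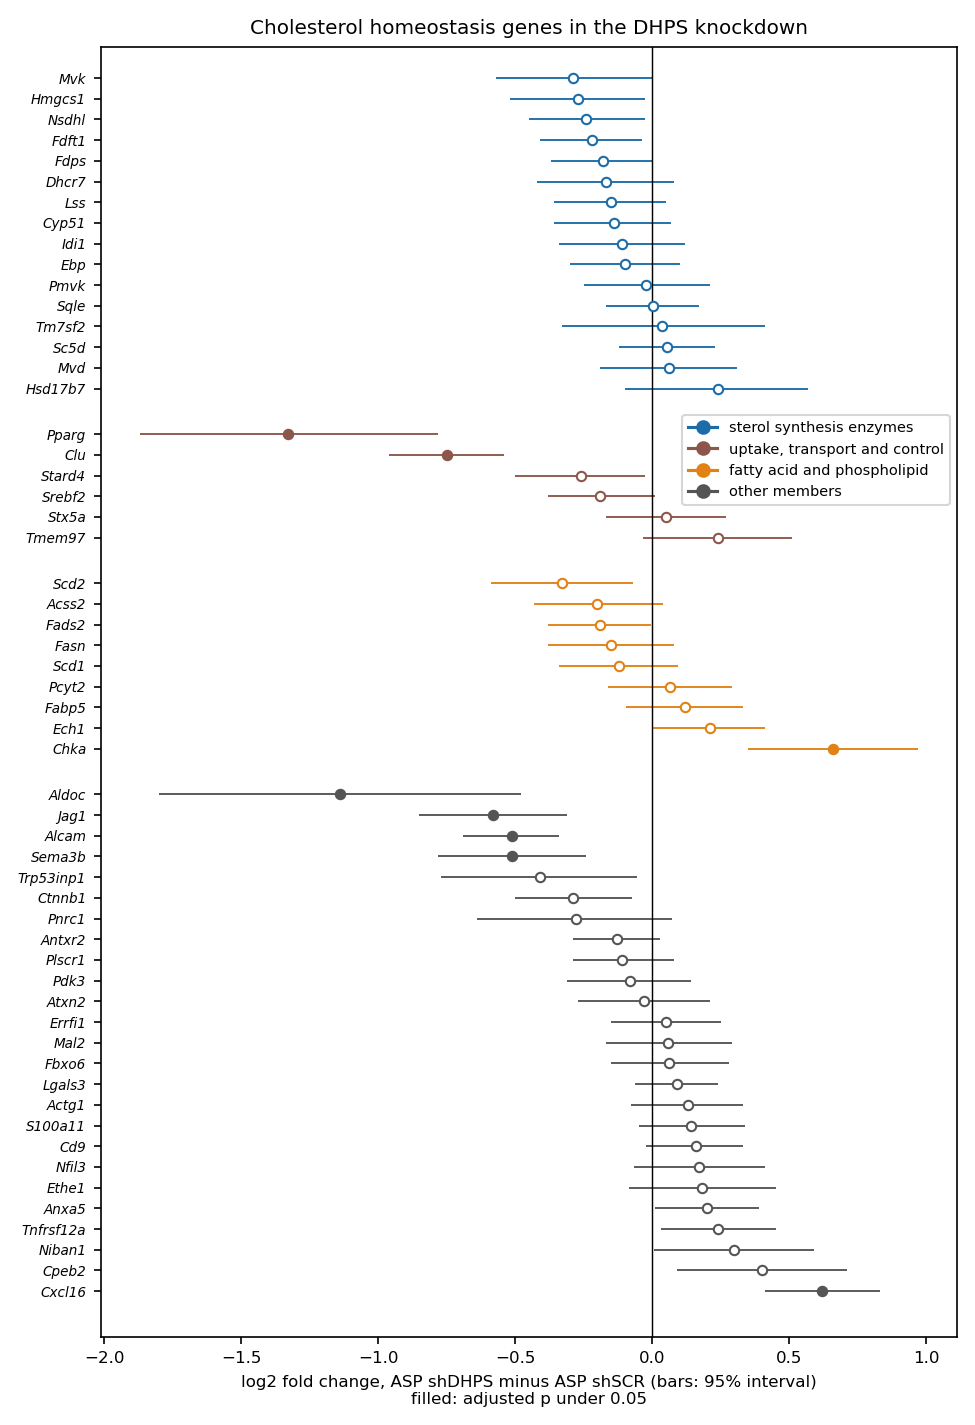
Log2 fold change of 56 members with at least 1 CPM in ASP shDHPS against ASP shSCR (x axis) with 95% confidence intervals, by functional list (y axis, sorted within each list). Filled points passed an adjusted p under 0.05: 6 members below 0, 2 above, and none among the sterol synthesis enzymes.

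*Pparg* had the largest fold of the called members and the fewest reads. Its 4 ASP shDHPS libraries stood at 0.946, 0.733, 0.918 and 0.747 CPM, below all 10 other libraries, of which the lowest was ASP shSCR replicate 3 at 1.47 CPM. The means were 2.13 ± 0.472 CPM in ASP shSCR (SD, n = 4) and 0.836 ± 0.111 CPM in ASP shDHPS (SD, n = 4), a log2 fold change of -1.33 ± 0.26 or 2.51-fold lower (edgeR adjusted p = 0.0053). The smallest count was 11 reads, so counting error is a large part of the spread. The call held without each library in turn. The edgeR adjusted p (DESeq2's in 1 case) ranged from 0.000621 to 0.312 over the 17 alternatives and was above 0.05 only in the test against a 1.5-fold difference.

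*Clu* was 463, 418, 481 and 427 CPM in ASP shDHPS, below every library of the other 3 groups, of which the lowest was 585 CPM in ASP shGRIN2D. Clusterin is secreted and carries lipids outside the cell. The log2 fold change was -0.75 ± 0.10 (edgeR adjusted p = 0.000177). ASP shSCR replicate 2, at 907 CPM, was the highest of the controls, and without each library in turn *Clu* was called again.

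*Alcam*, a cell adhesion molecule, was 86.2, 101, 87 and 96.1 CPM in ASP shSCR and 63.7, 60.3, 67.5 and 68.2 CPM in ASP shDHPS. The groups were well apart (log2 fold change -0.51 ± 0.084, edgeR adjusted p = 0.00134). *Jag1*, a ligand of Notch receptors, was 26.5, 39.4, 35.4 and 32.4 CPM in ASP shSCR and 19, 18.3, 25.9 and 26.2 CPM in ASP shDHPS, where ASP shSCR replicate 1 nearly met the upper knockdown libraries. Its log2 fold change was -0.58 ± 0.13 (edgeR adjusted p = 0.013), and without ASP shSCR replicate 2 the fold was -0.49 and the call was lost (adjusted p = 0.052).

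*Sema3b*, a secreted guidance protein, was 13.9, 15.4, 11.4 and 11.9 CPM in ASP shSCR and 8.88, 8.26, 9.56 and 10.1 CPM in ASP shDHPS (log2 fold change -0.51 ± 0.13, edgeR adjusted p = 0.0252). The groups were apart, but the call was lost without ASP shSCR replicate 1 or 2 or ASP shDHPS replicate 1, 2 or 3. The fold was -0.43 without ASP shSCR replicate 2 (edgeR adjusted p = 0.104) and -0.50 without ASP shDHPS replicate 1 (adjusted p = 0.0551). *Aldoc*, the aldolase C of glycolysis, was 10.6, 31.1, 9.7 and 11.6 CPM in ASP shSCR and 8.4, 8.06, 6.32 and 5.87 CPM in ASP shDHPS. Its fold of -1.14 ± 0.32 on the log2 scale (edgeR adjusted p = 0.0439) rested on ASP shSCR replicate 2. Without that library the fold was -0.57 and the call was lost (edgeR adjusted p = 0.265), as it was without any 1 of the ASP shDHPS libraries and with DESeq2. Without both shSCR libraries numbered 2 the fold was -0.56 and the call held (adjusted p = 0.0494).

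Both members that rose have roles outside sterol synthesis. *Cxcl16*, a membrane-bound chemokine that also takes up oxidised lipid, was 45.6, 59.6, 51.1 and 53 CPM in ASP shSCR and 83.5, 78.1, 81.7 and 78.5 CPM in ASP shDHPS. All ASP shDHPS libraries were above all others of the series (log2 fold change 0.62 ± 0.10, edgeR adjusted p = 0.00118). *Chka*, the choline kinase that begins phosphatidylcholine synthesis, was 40, 34.2, 53.1 and 45.6 CPM in ASP shSCR and 53.6, 69.9, 77.6 and 71.7 CPM in ASP shDHPS. The nearest libraries of both groups almost met (log2 fold change 0.66 ± 0.15, edgeR adjusted p = 0.0126), and without ASP shDHPS replicate 3 the fold was 0.59 and the call was lost (adjusted p = 0.0553).

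**Figure D4:**
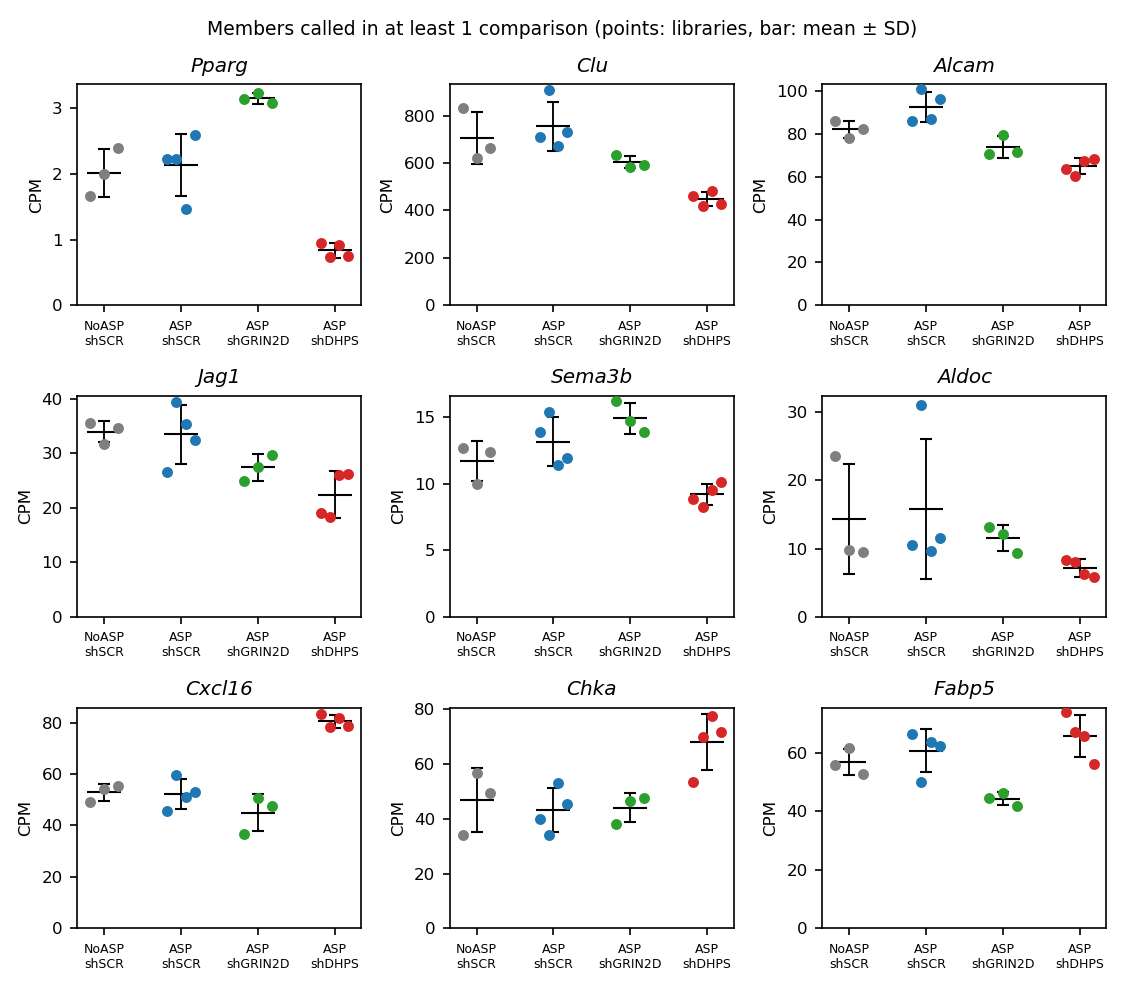
CPM (y axis, from 0) of the 9 members called in at least 1 comparison, by group (x axis), with a point for each library and the mean ± SD as bars. *Pparg* and *Clu* are lowest and *Cxcl16* is highest in all 4 ASP shDHPS libraries, *Fabp5* is lowest in ASP shGRIN2D, and 1 ASP shSCR library carries the high mean of *Aldoc*.

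Most sterol synthesis enzymes had a fold below 0 in the DHPS knockdown, with intervals within 1.5-fold for all but *Acat3*. Without a replicate block, edgeR called 0 of the 18 enzymes, 4 had an unadjusted p under 0.05, and DESeq2 called 1. Of all 19525 genes, 3769 had an unadjusted p under 0.05 by edgeR. Among the 17 enzymes with at least 5 CPM, 70.6% had a fold below 0 with a median of -0.14, beside 50.8% and a median of -0.0038 for the 10224 genes at that level. The median of all 18 enzymes was -0.13, and it was -0.22 without ASP shDHPS replicate 1, -0.075 without replicate 3 and -0.085 without replicate 4. *Mvk* (-0.29 ± 0.14), *Hmgcs1* (-0.27 ± 0.12), *Nsdhl* (-0.24 ± 0.10) and *Fdft1* (-0.22 ± 0.09) had log2 fold changes among the lowest. Their edgeR adjusted p-values were 0.264, 0.207, 0.198 and 0.171.

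*Fdps* (-0.18), *Dhcr7* (-0.17), *Lss* (-0.15), *Cyp51* (-0.14), *Idi1* (-0.11), *Ebp* (-0.10) and *Pmvk* (-0.022) were also below 0 on the log2 scale. *Sqle* (0.0017), *Tm7sf2* (0.037), *Sc5d* (0.055), *Mvd* (0.061) and *Hsd17b7* (0.24) were above 0. For all 17, the 95% interval lay within 1.5-fold, between -0.57 for *Mvk* and 0.57 for *Hsd17b7*. *Fdft1*, the squalene synthase, was 118, 114, 120 and 131 CPM in ASP shSCR and 123, 97.9, 96.7 and 95.2 CPM in ASP shDHPS, where replicate 1 alone reached the controls. Without that library its fold was -0.32 and it was called (edgeR adjusted p = 0.0224). *Dhcr7*, the last enzyme of the pathway, went the other way in replicate 1, at 44.6 CPM beside 76.4, 77.5 and 69.1 CPM.

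Apart from *Pparg* and *Clu*, no gene of uptake, transport and control was called. *Srebf2* was 255, 277, 260 and 260 CPM in ASP shSCR and 191, 260, 211 and 262 CPM in ASP shDHPS, so that replicates 1 and 3 were low and replicates 2 and 4 were not (log2 fold change -0.19, 95% interval -0.38 to 0.0087). On the log2 scale, the fold change of *Stard4*, a cholesterol carrier, was -0.26 ± 0.11, that of *Tmem97*, which binds the lysosomal cholesterol transporter NPC1, was 0.24 ± 0.13, and that of *Stx5a*, a vesicle fusion protein, was 0.051 ± 0.11.

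In the list of fatty acid and phospholipid genes, *Chka* was called and the other 8 were not. The extremes of these 8, named here after their values were seen, were *Scd2* and *Ech1*. *Scd2*, a desaturase that makes monounsaturated fatty acids, was 481, 690, 499 and 574 CPM in ASP shSCR and 467, 484, 388 and 447 CPM in ASP shDHPS, and these overlapped (log2 fold change -0.33 ± 0.13, edgeR adjusted p = 0.15). *Ech1* was 80.1, 76.3, 78.2 and 77.8 CPM in ASP shSCR and 101, 82.1, 98 and 79.9 CPM in ASP shDHPS (0.21 ± 0.10, edgeR adjusted p = 0.249). *Fabp5*, called in the GRIN2D knockdown, had a log2 fold change of 0.12 ± 0.10 here (edgeR adjusted p = 0.568). Of the 28 members with other functions 5 were called, 11 had an unadjusted p under 0.05 and 12 had a fold below 0 (42.9%). Of all 19525 genes, 824 were called (4.22%), 3769 had an unadjusted p under 0.05 by edgeR and 48.6% had a fold below 0.

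Of the 46 pathway genes outside the set, 3 were called lower by edgeR and 0 higher. Of all genes 2.57% were called lower and 1.65% higher, and of those with at least 5 CPM 6.93% were called in either direction. *Insig1*, which holds SCAP back when sterol is plentiful, was 166, 205, 146 and 176 CPM in ASP shSCR and 151, 131, 106 and 125 CPM in ASP shDHPS (-0.43 ± 0.12, edgeR adjusted p = 0.0451), with ASP shDHPS replicate 1 inside the control range. *Osbp*, a sterol exchange protein, fell by 0.29 on the log2 scale (edgeR adjusted p = 0.0486), and *Acat1*, a mitochondrial thiolase, by 0.29 (edgeR adjusted p = 0.0499). All 3 were called close to the threshold, and their calls under the alternatives are not given here. *Srebf1* (-0.18), *Scap* (0.13), *Insig2* (0.019) and *Msmo1* (0.066) were not called.

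The libraries of ASP shDHPS were also compared with the other 2 groups, which shares them with the comparison above. Against ASP shGRIN2D, 6 members were called beside 2.82% of all genes. Among genes with at least 5 CPM, 5 of 57 members (8.77%) and 476 of 10224 genes (4.66%) were called. *Pparg* (log2 fold change -1.90 ± 0.27, edgeR adjusted p = 0.000212), *Sema3b* (-0.70 ± 0.14, adjusted p = 0.00583) and *Clu* (-0.43 ± 0.11, adjusted p = 0.0319) were lower in ASP shDHPS. *Cxcl16* (0.84 ± 0.11, edgeR adjusted p = 8.88e-05), *Chka* (0.63 ± 0.16, adjusted p = 0.035) and *Fabp5* (0.57 ± 0.11, adjusted p = 0.00515) were higher.

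*Pparg* was at 3.14, 3.23 and 3.07 CPM in ASP shGRIN2D, the highest of the series, and at 0.733 to 0.946 CPM in ASP shDHPS, the lowest. It was the member whose difference passed the test against 1.5-fold. *Fabp5* was 73.8, 66.9, 65.7 and 56.2 CPM in ASP shDHPS, above all 3 ASP shGRIN2D libraries and overlapping with the controls. Without ASP shGRIN2D replicate 1 the count fell to 3 members, *Cxcl16*, *Fabp5* and *Pparg*. The calls of *Clu* and *Chka* were lost without any 1 of the 3 ASP shGRIN2D libraries, and also without ASP shDHPS replicate 2 or 4 or, for *Chka*, replicate 3. Their folds without 1 library stayed between -0.47 and -0.40 for *Clu* and between 0.54 and 0.73 for *Chka*. The *Chka* call was also lost with a robust prior. No enzyme was called by edgeR or DESeq2, and 1 had an unadjusted p under 0.05, beside 2898 of all 19525 genes. That enzyme was *Tm7sf2*, at 9.88, 12.6, 9.07 and 7.85 CPM in ASP shDHPS (0.54, 95% interval 0.13 to 0.95, edgeR adjusted p = 0.175). Of the 46 pathway genes outside the set 1 was called higher, *Msmo1*, a sterol demethylating enzyme (0.46, edgeR), and 0 lower. The call of *Msmo1* under the alternatives is not given here either.

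Against NoASP shSCR, 3 of 57 members (5.26%) and 314 of 10224 genes (3.07%) with at least 5 CPM were called in ASP shDHPS. Counting all levels, 4 members were called beside 1.81% of all genes. These were *Clu* (log2 fold change -0.66 ± 0.11, edgeR adjusted p = 0.00242), *Pparg* (-1.26 ± 0.28, adjusted p = 0.0206), *Jag1* (-0.60 ± 0.14, adjusted p = 0.0281) and *Cxcl16* (0.61 ± 0.11, adjusted p = 0.00539). NoASP shSCR stood at 832, 623 and 665 CPM for *Clu* and at 49, 54.2 and 55.4 CPM for *Cxcl16*, apart from ASP shDHPS in both cases. Same-numbered libraries correlated in this comparison (0.205 to 0.373, 3 pairs), and the numbers were taken as pairs from the data only. With the replicate as a block in the model of all 14 libraries, 12 members were called. The 8 added were *Alcam*, *Aldoc*, *Chka*, *Fdft1*, *Hmgcs1*, *Scd2*, *Stard4* and *Tnfrsf12a*, of which the enzymes *Fdft1* and *Hmgcs1* each had a log2 fold change of -0.32 (edgeR adjusted p = 0.0282 and 0.039 with the block).

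Without the block, 0 enzymes were called by edgeR in this comparison, 5 had an unadjusted p under 0.05, and DESeq2 called 2, *Fdft1* and *Nsdhl*. Of all 19525 genes, 3191 had an unadjusted p under 0.05 by edgeR. The count of members called was 8 without NoASP shSCR replicate 3 and 2 without replicate 2 (*Clu* and *Pparg*) or replicate 4 (*Clu* and *Cxcl16*). The *Jag1* call was lost without NoASP shSCR replicate 2 or 4, without ASP shDHPS replicate 1 or 2 and without both shSCR libraries numbered 2, with folds from -0.59 to -0.52. The *Pparg* call was lost without NoASP shSCR replicate 4 (-1.12, edgeR adjusted p = 0.112) and when only both groups were fitted. Of the 46 pathway genes outside the set, 0 were called by edgeR and 7 had an unadjusted p under 0.05.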

How the data were processed

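RNA was sequenced from the cytosolic lysate of 14 spheroid samples with a stranded mRNA kit. The authors trimmed reads with Trim Galore 0.6.6, checked them with FastQC 0.11.9, aligned them with STAR 2.6.1 to GRCm39 and estimated counts with Salmon 1.4.0. The deposited values are these gene counts rounded to whole numbers by the authors, who kept genes expressed in at least 2 replicates of a condition. Their DESeq2 1.34.0 and enrichment tables hold fold changes and p-values and were not used. Total counts were 12731123 to 23231378 per library. Intervals have a 95% level, and those of a fold cover the spread between libraries.

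All 19525 genes were fitted in 1 model of the 4 groups with edgeR 4.0.16 (quasi-likelihood test, TMM factors 0.984 to 1.02, R 4.3.3), and p-values were adjusted over all genes by Benjamini-Hochberg. The threshold of a call was an adjusted p of 0.05. CPM was scaled by TMM, with a prior count of 2 where log2 CPM is used. A filter on low counts, used only as an alternative, kept 13421 genes and 59 of the 62 members. In simulated counts for ASP shDHPS against ASP shSCR, 200 of the 19525 genes were changed, all drawn from genes with at least 5 CPM. Of these changes, 83% at 1.5-fold and 99% at 2-fold were recovered. These shares do not cover members below that level, such as *Pparg*. Alternatives were DESeq2 1.42.0, other size factors, the filter, a robust prior, only the 2 groups compared, a 1.5-fold test, a replicate block and leaving out libraries. The replicate block was fitted over all 14 libraries, so every group shared its terms. Omission of both shSCR libraries numbered 2 and a block within the 7 shSCR libraries were added after seeing the data.

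The members and lists were chosen with earlier results of these data known. The rule named all enzymes and all genes of uptake, transport and control, but some genes enter only the counts and medians and are not reported by name here. Of the other members, up to 6 called higher and 6 lower were named in each comparison, or the 3 with the smallest p where none was called. Of 49 listed pathway genes outside the set 46 were analysed, and those called were named. Comparisons share libraries, so their results are not independent. The study's methods describe independent spheroid pellets per condition. All pellets of a group came from the same polyclonal line, so p-values measure the spread between pellets of a line. No pair of replicates agreed within sampling noise (18 pairs, chi-square per degree of freedom 7.69 to 41.8). The meaning of a replicate number is not given in the sources used here. Deviations from group means correlated between same-numbered libraries in every pair for aspartate (r 0.203 to 0.514, 3 pairs) and for ASP shDHPS against NoASP shSCR (0.205 to 0.373, 3 pairs), so these numbers were taken as pairs from the data.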

Additional observations from a re-analysis of the deposited data

Results flagged for a closer look

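Within the groups of 4 libraries, 9 of 116 sets of values (58 members in 2 groups) had 1 library far from the other 3, where chance gives about 1 in 20. Sterol synthesis enzymes gave 4 of the 9. *Fdft1* was 123 CPM in ASP shDHPS replicate 1 beside 95.2 to 97.9 CPM, and *Nsdhl* was 34.5 CPM in the same library beside 28.2 to 28.9 CPM. *Hsd17b7* was 36.8 CPM in ASP shDHPS replicate 3 beside 54.9 to 58.4 CPM. *Hmgcs1* was 228 CPM in ASP shSCR replicate 4 beside 176 to 185 CPM.

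Of the other 5, 3 were high in ASP shSCR replicate 2. *Aldoc* was 31.1 CPM there beside 9.7 to 11.6 CPM, *Niban1* was 26 CPM beside 18.9 to 19.7 CPM, and *Plscr1* was 78 CPM beside 66.8 to 68.3 CPM. *Antxr2* was 149 CPM in ASP shDHPS replicate 1 beside 127 to 130 CPM. *Cd9* was 502 CPM in ASP shSCR replicate 3 beside 519 to 521 CPM, a gap that is small for its level. The causes were not tested.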

How the results depend on the processing

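No named member changed direction with a call under any alternative, and the cause of the changes in count was not tested. Of the members called, DESeq2 gave 3 for ASP shGRIN2D against ASP shSCR and 8 for ASP shDHPS against NoASP shSCR, beside 1 and 4. With only the 2 groups compared in the fit, ASP shGRIN2D against ASP shSCR gave 2, ASP shDHPS against ASP shGRIN2D 10 and ASP shGRIN2D against NoASP shSCR 1. The test against 1.5-fold left 0 for ASP shGRIN2D against ASP shSCR, 0 for ASP shDHPS against ASP shSCR, 1 for ASP shDHPS against ASP shGRIN2D and 0 for ASP shDHPS against NoASP shSCR. Without 1 library, the count was 0 to 2 for ASP shGRIN2D against ASP shSCR, 5 to 8 for ASP shDHPS against ASP shSCR, 3 to 6 for ASP shDHPS against ASP shGRIN2D and 2 to 8 for ASP shDHPS against NoASP shSCR. Without both shSCR libraries numbered 2 it was 2 for ASP shGRIN2D against ASP shSCR. The median fold of the 18 enzymes in ASP shDHPS against ASP shSCR was between -0.22 (without ASP shDHPS replicate 1) and -0.075 (without ASP shDHPS replicate 3), beside -0.13.

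With the replicate number as a block, the count was 0 for aspartate, also within the 7 shSCR libraries, 4 for ASP shGRIN2D against ASP shSCR, 15 for ASP shDHPS against ASP shSCR, 12 for ASP shDHPS against ASP shGRIN2D, 2 for ASP shGRIN2D against NoASP shSCR and 12 for ASP shDHPS against NoASP shSCR. Enzymes called with the block included *Tm7sf2* in both comparisons of ASP shGRIN2D with the aspartate groups, *Hmgcs1* in ASP shDHPS against ASP shSCR, and *Fdft1* and *Hmgcs1* in ASP shDHPS against NoASP shSCR. Same-numbered libraries correlated at -0.117 to 0.042 for ASP shGRIN2D against ASP shSCR (1 of 6 best with its own number). They correlated at 0.00533 to 0.231 for ASP shDHPS against ASP shGRIN2D (2 of 6), so pairing was not shown in either comparison. For ASP shDHPS against ASP shSCR, all 4 pairs were above 0 (0.0404 to 0.258) and 5 of 8 were best with their own number. Whether that comparison is paired is not settled by these values, so its counts with and without the block are both given. ASP shGRIN2D against NoASP shSCR has 2 pairs, at 0.123 and 0.164, and 4 of 4 libraries were best with their own number. So few pairs do not settle whether it is paired. Depth limits *Acat3*, *Cbs*, *Gldc* and *Gstm7*, at under 1 CPM.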
